A study of Homo sapiens with 6 samples.

Results

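Galanin, neurotensin and the urotensins are small secreted peptides that act through G protein-coupled receptors, and 10 genes of these systems were described in 2 sublines of one prostate carcinoma line. The genes were chosen by symbol: the peptide genes GAL, NTS, UTS2 and UTS2B, the receptor genes GALR1, GALR2, NTSR1, SORT1 and UTS2R, and SCG5, a gene of prohormone processing. They were picked with the PC-3/Mc against PC-3/S contrast already in view, so their differences between the lines are a description, carry no test and support no other statement. A probe set was used where the array annotation gives one of these symbols alone, which held for 11 of the 54613 probe sets that are not controls. These 11 belong to 9 genes of the 19775 with a probe set of their own; SORT1 had 0 such probe sets and is not analysed here.

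The line PC-3/Mc was set against the line PC-3/S, each measured on 3 one-colour Affymetrix arrays. Both are sublines of PC-3, an established human cell line grown from a bone metastasis of prostate carcinoma, and no treatment is named for either. The labels give only the name of each line and a biological replicate number, and say neither how the sublines were derived nor whether replicates came from separate cultures, so the spread may be technical. The study's question is how the epithelial-mesenchymal transition bears on the attributes of tumor-initiating cells.

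Neuropeptides are cut from larger precursors inside secretory granules by prohormone convertases, trimmed by carboxypeptidase E, in many cases amidated, and released on stimulation. Neurotensin drives calcium and protein kinase C signalling through NTSR1, and galanin signals mainly through inhibitory G proteins at GALR1 and also through phospholipase C at GALR2. UTS2 (urotensin II) and UTS2B (urotensin II-related peptide) share the receptor UTS2R. In the prostate such peptides are known from neuroendocrine cells, and neurotensin is known as a growth factor for prostate carcinoma cells in culture.

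Arrays were alike in brightness, with medians from 4.98 to 5.09 on the log2 scale. Correlations across probe sets were 0.995 to 0.997 within a line and 0.949 to 0.952 between lines. No pair of arrays held identical values. CTNNA1, whose deletion is a known feature of PC-3, read between 3.51 and 5.18 on its 5 probe sets, and readings up to 5.18 are treated below as possible background. Epithelial markers KRT8, KRT18 and KRT19 were bright in both lines, with means from 9.81 to 12.48 in PC-3/Mc, against 8.78 to 11.76 in PC-3/S. CDH1 read 7.47 to 7.84 in PC-3/Mc, against background readings of 3.91 to 4.07 in PC-3/S, and EPCAM was at 11.88 in PC-3/Mc, against 6.44 in PC-3/S. Of the leukocyte markers 0 of 3 read above the background reading, of the endothelial markers 1 of 3 (PECAM1) and of the fibroblast markers 1 of 3 (DCN). Summed log2 levels of the leukocyte markers ran from 12.60 to 13.40 in PC-3/Mc, against 12.30 to 13.17 in PC-3/S. Those of the endothelial markers ran from 15.91 to 16.42 in PC-3/Mc, against 15.32 to 16.08 in PC-3/S, and those of the fibroblast markers from 14.35 to 15.11 in PC-3/Mc, against 14.81 to 15.23 in PC-3/S. KLK3, a luminal gene that PC-3 is known not to express, read 6.07 to 6.74 in PC-3/Mc, against 6.60 to 6.84 in PC-3/S on its brightest probe set, so the background differs between probe sets and a reading somewhat above 5.18 need not be signal.

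The peptide genes GAL, NTS and UTS2B were high in PC-3/Mc and at background readings in PC-3/S. The 2 UTS2 probe sets and the receptor genes GALR1 and GALR2 read under 5.18 on all 6 arrays. NTSR1 and SCG5 were lower in PC-3/Mc than in PC-3/S, and UTS2R readings overlapped. Of the 11 probe sets, 6 had all PC-3/Mc arrays above all PC-3/S arrays and 2 had all of them below. Over all probe sets the arrays failed to overlap for 45.3%, higher in PC-3/Mc for 22.6% and lower for 22.7%. Limma, at an adjusted p under 0.05, called 35.9% of all probe sets, 18.4% higher and 17.5% lower. By the brightest probe set of each gene it called 43.7% of genes, 22.3% higher and 21.4% lower, and 11.5% with a difference of at least 2-fold, 5.88% higher and 5.58% lower. Since the genes were chosen on this contrast, nothing is read from their counts. In bulk RNA, fewer cells that make a transcript and less of it per cell cannot be told apart.

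**Figure D1:**
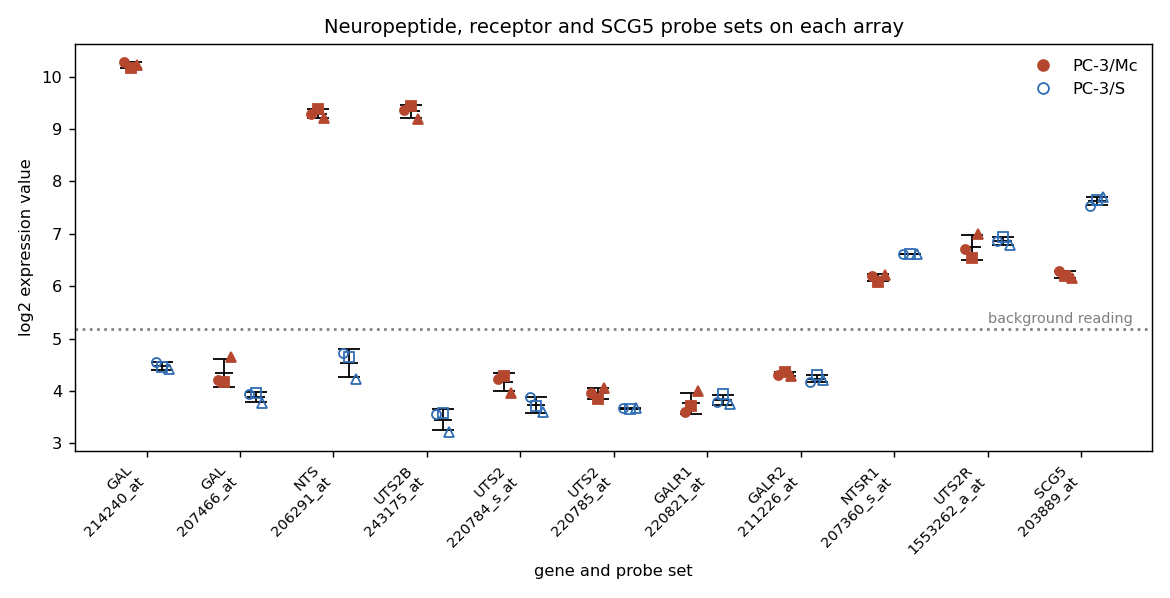
Log2 expression value (vertical axis) of each of the 11 probe sets (horizontal axis) on every array, with filled points for PC-3/Mc and open points for PC-3/S, circles, squares and triangles for replicates 1, 2 and 3, and black bars for the mean ± SD (n = 3). One GAL probe set and those of NTS and UTS2B stand between 9.20 and 10.27 in PC-3/Mc, against values between 3.22 and 4.72 in PC-3/S, under the dotted background reading of 5.18.

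Promoter sequences are shown for the 3 genes with the largest differences among those that have an entry in the RefSeq promoter table (build GRCh38.p14), a pair that was high in PC-3/Mc and SCG5, which was low there. The table held 8 of the 10 genes; GAL and UTS2R were without an entry. Each window runs from 250 bases before to 50 bases after the annotated start, written 5′ to 3′ on the gene's own strand. Capitals mark TGACG, or CGTCA where it lies on the other strand, the leading bases of the cAMP response element TGACGTCA, through which cAMP and calcium signals act on many neuropeptide genes. The NTS window is chr12:85874045-85874344 on the plus strand, that of UTS2B is chr3:191330477-191330776 on the minus strand and that of SCG5 is chr15:32641460-32641759 on the plus strand.
NTS: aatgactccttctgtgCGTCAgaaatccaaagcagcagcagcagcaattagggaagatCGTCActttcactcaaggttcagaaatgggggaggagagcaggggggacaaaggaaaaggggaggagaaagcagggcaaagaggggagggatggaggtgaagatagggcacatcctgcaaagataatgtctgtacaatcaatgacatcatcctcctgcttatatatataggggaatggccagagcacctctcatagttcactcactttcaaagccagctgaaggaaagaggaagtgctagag
UTS2B: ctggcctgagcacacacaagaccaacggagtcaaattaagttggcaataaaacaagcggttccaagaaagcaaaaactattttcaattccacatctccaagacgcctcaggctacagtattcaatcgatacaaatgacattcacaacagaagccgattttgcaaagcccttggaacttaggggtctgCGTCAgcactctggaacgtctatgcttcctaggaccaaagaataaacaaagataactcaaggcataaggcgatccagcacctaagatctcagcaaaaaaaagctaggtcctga
SCG5: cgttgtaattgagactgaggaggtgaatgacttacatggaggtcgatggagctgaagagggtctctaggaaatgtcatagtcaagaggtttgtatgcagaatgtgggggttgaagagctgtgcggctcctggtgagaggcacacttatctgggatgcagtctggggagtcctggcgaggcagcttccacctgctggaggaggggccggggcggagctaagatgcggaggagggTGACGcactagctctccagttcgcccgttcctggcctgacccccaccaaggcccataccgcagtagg

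The short motif TGACG was found 2 times in the NTS window, 1 time in that of UTS2B and 1 time in that of SCG5. It was also present in 24.6% of the 35116 promoter windows of the same length. The windows of GALR1, GALR2, NTSR1, UTS2 and SORT1 held 0 copies. The full element TGACGTCA (1.85% of all windows, each also counted under TGACG) and the AP-1 element TGANTCA (7.71%), searched on both strands, were in 0 of these windows. The TATA box TATAAA (11.5%) was found 3 times, all in 1 of the 2 UTS2 windows. These counts describe the letters in these windows and say nothing of what binds there.

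GAL encodes the precursor of galanin, a peptide of neurons and endocrine cells. Its brighter probe set read 10.27, 10.16 and 10.22 in PC-3/Mc replicates 1, 2 and 3, against 4.55, 4.46 and 4.41 in PC-3/S replicates 1, 2 and 3. Every PC-3/Mc array was high and every PC-3/S array lay under the background reading. The means were 10.22 ± 0.05 and 4.47 ± 0.07 (SD, n = 3 arrays each), and the difference, PC-3/Mc minus PC-3/S, was 5.74 ± 0.09 (SE) in log2 units. As PC-3/S was at background, the fold is a lower bound: the PC-3/Mc level of GAL was at least 32.9-fold that of PC-3/S.

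The other GAL probe set gave a different picture. It read 4.21, 4.17 and 4.66 in PC-3/Mc, against 3.94, 3.96 and 3.78 in PC-3/S, under the background reading on all arrays of both lines. The PC-3/Mc arrays still lay above the PC-3/S arrays, with a difference of 0.45 ± 0.13. With GAL taken as the median of its 2 probe sets, its difference was 3.10 instead of 5.74.

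NTS encodes the shared precursor of neurotensin and neuromedin N. Its single probe set read 9.29, 9.38 and 9.20 in PC-3/Mc, against 4.72, 4.64 and 4.23 in PC-3/S. All PC-3/Mc arrays were high and all PC-3/S arrays were at background, where the third replicate was the lowest. The means were 9.29 ± 0.09 in PC-3/Mc, against 4.53 ± 0.26 in PC-3/S, which differ by 4.76 ± 0.12 or at least 17.3-fold.

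UTS2B, which encodes urotensin II-related peptide, a cyclic peptide that shares the core of urotensin II, was also read by 1 probe set. Values were 9.36, 9.45 and 9.20 in PC-3/Mc, against 3.57, 3.58 and 3.22 in PC-3/S. The lines stood far apart, with no overlap. UTS2B averaged 9.34 ± 0.13 in PC-3/Mc, against 3.45 ± 0.21 in PC-3/S, and its difference was 5.88 ± 0.12, with a lower bound of 17.9-fold. In the RefSeq gene table the span of UTS2B overlaps that of CCDC50, an adaptor of growth factor receptor signalling. The 5 CCDC50 probe sets did not move as one: 2 were higher in PC-3/Mc (0.29, limma adjusted p = 0.0209, and 0.59, adjusted p = 0.00119), 2 were lower (-1.31, adjusted p = 1.49e-06, and another with means of 7.30 in PC-3/Mc, against 8.30 in PC-3/S, adjusted p = 1.53e-06) and the remaining one differed by -0.06 (adjusted p = 0.743). The call at 0.29, that of the brightest CCDC50 probe set, was lost when either of replicates 1 and 2 of either line was left out (adjusted p from 0.0505 to 0.0899), and with the median of its probe sets CCDC50 was lower (-0.41, adjusted p = 0.00307). No source used here gives the strand that the UTS2B probes read.

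UTS2 encodes urotensin II, a strong vasoconstrictor peptide. The first of its 2 probe sets read 4.23, 4.30 and 3.97 in PC-3/Mc, against 3.89, 3.71 and 3.60 in PC-3/S. The second read 3.97, 3.85 and 4.05 in PC-3/Mc, against 3.67, 3.65 and 3.67 in PC-3/S. Neither overlapped between the lines, with differences of 0.43 ± 0.11 and 0.29 ± 0.09, yet both lay under the background reading on all arrays, so no fold is given. Of the probe sets of the 2 urotensin peptide genes, only that of UTS2B read above the background reading in PC-3/Mc.

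The galanin receptor genes GALR1 and GALR2 were not detected above background in either line. GALR1, the receptor gene known to inhibit growth in several epithelial tumors, read 3.60, 3.71 and 3.99 in PC-3/Mc, against 3.79, 3.94 and 3.75 in PC-3/S. GALR2, which couples to phospholipase C, read 4.31, 4.37 and 4.29 in PC-3/Mc, against 4.18, 4.30 and 4.21 in PC-3/S. Readings of the lines overlapped for both genes, and the differences were -0.06 ± 0.11 for GALR1 and 0.09 ± 0.08 for GALR2. Without PC-3/Mc replicate 1 the small GALR1 difference turned to 0.03. The remaining galanin receptor gene, GALR3, read 6.11 in PC-3/Mc, against 6.38 in PC-3/S, and did not pass the test (difference -0.28 ± 0.13, limma adjusted p = 0.117). Both GALR3 means fall within the range that KLK3 covered, so they need not be signal.

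NTSR1, the high-affinity neurotensin receptor gene, read 6.20, 6.09 and 6.22 in PC-3/Mc, against 6.62, 6.61 and 6.62 in PC-3/S. All PC-3/Mc arrays were lower, by a small step: the difference was -0.44 ± 0.08, or 1.36-fold. These readings fall within the range that KLK3 covered, and whether they stand above this probe set's own background was not tested. NTSR2, the low-affinity receptor gene, read 4.80 in PC-3/Mc, against 4.99 in PC-3/S, under the background reading in both (difference -0.19 ± 0.09, limma adjusted p = 0.138).

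UTS2R, the receptor gene for both urotensin peptides, read 6.711, 6.530 and 6.996 in PC-3/Mc, against 6.872, 6.939 and 6.787 in PC-3/S. The lines overlapped: PC-3/Mc held both the lowest and the highest array. The means were 6.75 ± 0.23 and 6.87 ± 0.08, with a difference of -0.12 ± 0.12. That difference is smaller than the SD of the PC-3/Mc arrays. The UTS2R readings lie within or just above the range that KLK3 covered. Whether they stand above this probe set's own background was not tested.

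SCG5 encodes 7B2, the chaperone that prohormone convertase 2 needs to mature. It read 6.29, 6.20 and 6.16 in PC-3/Mc, against 7.54, 7.64 and 7.70 in PC-3/S. The arrays did not overlap and all PC-3/Mc arrays were low. SCG5 averaged 6.22 ± 0.07 in PC-3/Mc, against 7.63 ± 0.08 in PC-3/S, which differ by -1.41 ± 0.09. SCG5 was thus 2.66-fold lower in PC-3/Mc as read. Its PC-3/Mc readings fall within the range that KLK3 covered. Whether they stand above this probe set's own background was not tested. The RefSeq span of SCG5 also overlaps a readthrough transcript with the neighbouring gene ARHGAP11A, and long noncoding RNA genes, among them SCG5-AS1.

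The spread of these probe sets within a line lay on both sides of the median over all probe sets. The SD ran from 0.04 to 0.27 in PC-3/Mc, where the median over all probe sets was 0.12, and from 0.01 to 0.26 in PC-3/S, where that median was 0.10. Without probe sets below the 40th percentile of mean level, 6 of the 11 remained, 1 each of GAL, NTS, UTS2B, NTSR1, UTS2R and SCG5. That filter takes the mean of all 6 arrays. GAL, NTS and UTS2B, at background in PC-3/S, remained only through their PC-3/Mc readings, so nothing is read from their passing.

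For the genes that differed at least 8-fold, the 3 genes with the most similar readings over the 6 arrays were sought, by the root mean square distance between brightest probe sets on the log2 scale. Nearest to GAL were XIST (0.16), MAGEA10 (0.25) and CTAG2 (0.27). Nearest to NTS were NFE4 (0.20), CXADR (0.21) and HS3ST3A1 (0.23), which averaged 9.21, 9.34 and 9.28 in PC-3/Mc, against 4.37, 4.36 and 4.25 in PC-3/S. Nearest to UTS2B were ZFPM2 (0.29), PPP2R2C (0.39) and ADGRL2 (0.45). Each distance rests on 6 arrays in 2 lines and therefore reflects little more than a like pair of levels.

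Genes next to the peptide genes on the chromosome were read to see whether whole neighbourhoods differed; they were added after the values of the peptide genes had been seen. The 3 nearest protein-coding genes with a probe set on either side of each of the 9 genes gave 54 genes, of which limma called 9 higher and 13 lower in PC-3/Mc, against 22.3% higher and 21.4% lower over all genes. Around GAL, 2 of 6 were higher, CPT1A, the carnitine palmitoyltransferase of liver type (1.08 ± 0.09, adjusted p = 9.29e-07), and MRPL21, a mitochondrial ribosomal protein gene (0.51 ± 0.09, adjusted p = 0.000426). The genes flanking GAL directly, PPP6R3 (0.16 ± 0.09, adjusted p = 0.197) and TESMIN (-0.14 ± 0.10, adjusted p = 0.319), did not pass the test.

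Around NTS, the flanking gene RASSF9, of a Ras-association domain family, read 5.78 in PC-3/Mc, against 3.83 in PC-3/S, and was higher as read (1.94 ± 0.11, limma adjusted p = 4.01e-08). The PC-3/S mean of RASSF9 was under the background reading. The PC-3/Mc mean of RASSF9 lay below the KLK3 readings and need not be signal. MGAT4C, on the other side, was under the background reading in both lines, at 2.93 in PC-3/Mc, against 2.92 in PC-3/S. By their brightest probe sets, the neighbours of UTS2B differed by at most 0.39 in size. Around SCG5 directions were mixed by limma. Lower as read were GREM1, a BMP antagonist gene (-2.13 ± 0.11, adjusted p = 2.93e-08), and GOLGA8N (-0.58 ± 0.10, adjusted p = 0.000731). GREM1 read 3.47 in PC-3/Mc, under the background reading, against 5.60 in PC-3/S, below the KLK3 readings, so neither need be signal. The fit without dim probe sets held no GREM1 probe set. Higher as read were FMN1, a formin gene (1.54 ± 0.10, adjusted p = 1.55e-07), and ARHGAP11A (0.74 ± 0.11, adjusted p = 0.000221). FMN1 read 6.51 in PC-3/Mc, within the KLK3 range, against 4.96 in PC-3/S, under the background reading. GOLGA8N had no probe set left in the fit without those ending in _x_at, _s_at or _a_at.

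**Figure D2:**
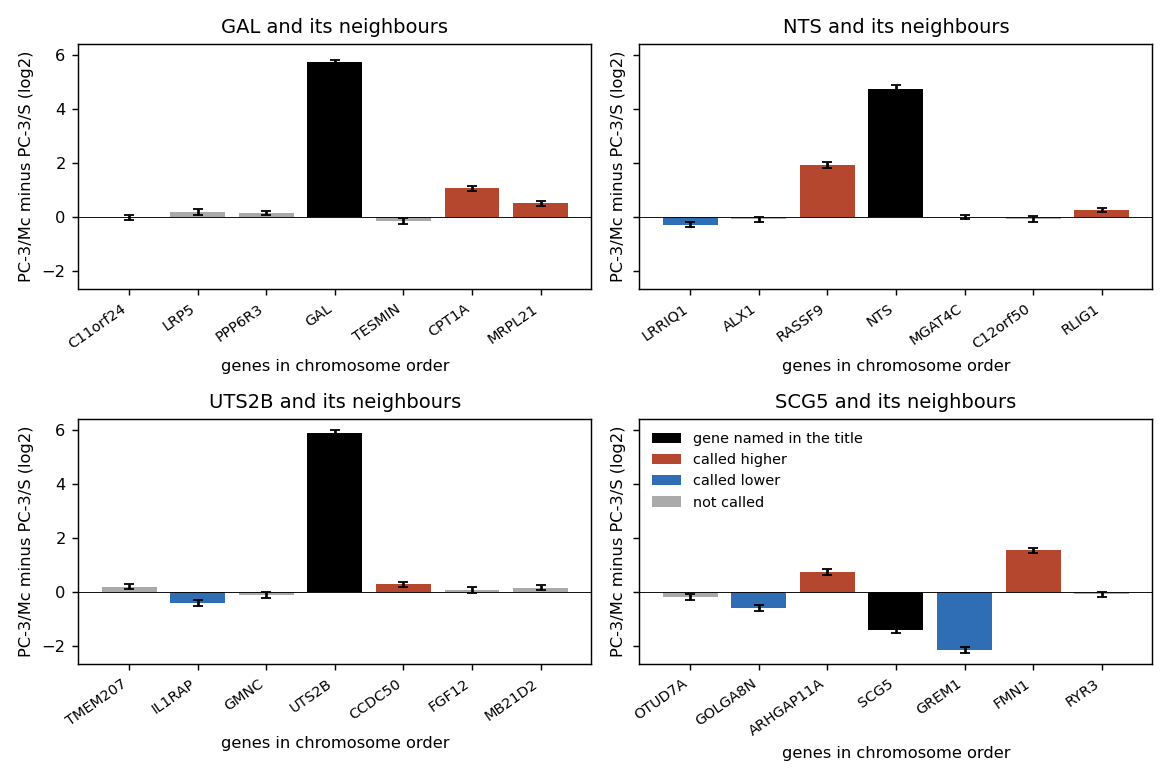
Difference between the lines (vertical axis, PC-3/Mc minus PC-3/S, in log2 units, bars with SE) of GAL, NTS, UTS2B and SCG5 (black) and the 3 nearest protein-coding genes on either side with a probe set (horizontal axis, chromosome order), coloured by limma call. GAL, NTS and UTS2B stand at 5.74, 4.76 and 5.88, and the highest of their neighbours is RASSF9, at 1.94 as read. The peptide genes were picked with this contrast in view, so nothing is read from that gap.

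Most other neuropeptide and peptide hormone precursors were dark in both lines. Of 59 measured, 20 read above the background reading in either line. Limma called 4 higher (6.78%) and 7 lower (11.9%) in PC-3/Mc and left 48 uncalled, against 22.3% and 21.4% over all genes, with a median difference of -0.03, as over all genes (-0.03). Higher were NPW (neuropeptide W), at 7.05 ± 0.13 in PC-3/Mc, against 3.66 ± 0.15 in PC-3/S, at least 3.66-fold (limma adjusted p = 2.43e-10), NMU (neuromedin U), at 9.14 ± 0.04 in PC-3/Mc, against 6.92 ± 0.19 in PC-3/S, 4.65-fold (adjusted p = 8.48e-09), and the vasodilator gene ADM (adrenomedullin), at 9.25 ± 0.09 in PC-3/Mc, against 7.24 ± 0.02 in PC-3/S, 4.03-fold (adjusted p = 3.74e-09). The 4th, AVP, was called (0.38 ± 0.13, adjusted p = 0.0462) with both means under the background reading. NPW had no probe set left in the fit without those ending in _x_at, _s_at or _a_at. Lower were the endothelin gene EDN1, at 4.94 ± 0.06 in PC-3/Mc, against 8.21 ± 0.21 in PC-3/S, at least 8.17-fold (adjusted p = 4.58e-10), the bombesin-like peptide gene NMB (-0.76 ± 0.09, adjusted p = 3.82e-05), the neurokinin B gene TAC3 (-0.51 ± 0.11, adjusted p = 0.00346) and INSL3, an insulin-like peptide gene (-0.38 ± 0.11, adjusted p = 0.0122). The INSL3 call was lost without probe sets ending in _x_at, _s_at or _a_at (adjusted p = 0.838) and with the median of its probe sets (adjusted p = 0.476). Leaving out PC-3/Mc replicate 2 (adjusted p = 0.053) or leaving out replicate 1 of PC-3/S (adjusted p = 0.0652) also ended it. GALP, the galanin-like peptide gene, read 3.71 in PC-3/Mc, against 3.74 in PC-3/S and was not called (adjusted p = 0.838).

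Receptor genes for other neuropeptides were sparse as well, with 28 of 80 above the background reading. Limma called 2 higher (2.50%) and 8 lower (10%) in PC-3/Mc, against 22.3% and 21.4% over all genes, with a median of -0.05. The call split depended on scaling: quantile normalization gave 7 higher and 6 lower, and centring each array on its median 5 higher and 6 lower. NPR3, the natriuretic peptide clearance receptor gene, was 6.40-fold higher at 9.57 ± 0.04 in PC-3/Mc, against 6.89 ± 0.08 in PC-3/S (limma adjusted p = 3.12e-10). NPY1R, the other of the 2, was under the background reading in both lines. The oxytocin receptor gene OXTR was at least 7.55-fold lower (adjusted p = 7.89e-10), at 4.72 ± 0.25 in PC-3/Mc, against 8.09 ± 0.08 in PC-3/S. GRPR, the gastrin-releasing peptide receptor gene, was 3.09-fold lower as read (adjusted p = 2.1e-07) and the bradykinin receptor gene BDKRB1 at least 2.14-fold lower (adjusted p = 6.76e-07). The GRPR mean of 6.30 in PC-3/Mc and the BDKRB1 mean of 6.28 in PC-3/S fall within the range that KLK3 covered. These readings need not be signal. SORL1, a sorting receptor of the family to which sortilin belongs, was at 8.02 ± 0.12 in PC-3/Mc, against 8.60 ± 0.01 in PC-3/S (difference -0.58 ± 0.09, adjusted p = 0.000224).

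Genes of regulated secretion and prohormone processing split evenly, 6 higher (20.0%) and 6 lower (20.0%) in PC-3/Mc of 30 measured, near the 22.3% and 21.4% over all genes, with a median of 0.01. Without probe sets ending in _x_at, _s_at or _a_at the calls were 5 higher and 2 lower. The convertase genes PCSK1 and PCSK2 (PCSK2 being the client of 7B2) had no probe set of their own and are not analysed here. PCSK1N, which encodes proSAAS, an inhibitor of prohormone convertase 1, was 4.89-fold lower as read (limma adjusted p = 1.11e-08), at 5.97 ± 0.22 in PC-3/Mc, against 8.26 ± 0.03 in PC-3/S. The PC-3/Mc mean of PCSK1N lay below the KLK3 readings and need not be signal. CPE, carboxypeptidase E, was 1.81-fold lower (adjusted p = 6.56e-06), the syntaxin gene STX1A 2.45-fold (adjusted p = 1.67e-07) and PTPRN2, a dense-core vesicle membrane protein gene, 2.16-fold (adjusted p = 2.67e-06). The PTPRN2 call was lost without probe sets ending in _x_at, _s_at or _a_at (adjusted p = 0.255). CPE and STX1A had no probe set left in that fit.

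CADPS2, a priming factor for dense-core vesicle release, was at least 6.53-fold higher (limma adjusted p = 3.76e-10), at 7.88 ± 0.09 in PC-3/Mc, against 4.74 ± 0.16 in PC-3/S. The vesicular monoamine transporter gene SLC18A2 was at least 2.07-fold higher (adjusted p = 2.17e-07) and RAB3A 1.56-fold (adjusted p = 0.000101). SYT7, a calcium sensor of exocytosis, was 1.95-fold higher (adjusted p = 5.02e-05), but with the median of its probe sets its difference was -0.06 (adjusted p = 0.566). The PC-3/Mc means of SLC18A2 (6.23), RAB3A (6.38) and SYT7 (6.52) fall within the range that KLK3 covered and need not be signal. PAM, a peptide-amidating enzyme, was bright and not called, at 10.15 in PC-3/Mc, against 10.20 in PC-3/S (-0.05 ± 0.09, adjusted p = 0.724). The granins that mark neuroendocrine cells, CHGA (4.57 to 4.96 in PC-3/Mc, against 4.89 to 5.11 in PC-3/S, adjusted p = 0.135) and CHGB (4.04 in PC-3/Mc, against 4.11 in PC-3/S, adjusted p = 0.582), were under the background reading in both lines and not called.

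Among peptidases that break down neuropeptides, limma called 5 of 11 higher (45.5%) and 2 lower (18.2%) in PC-3/Mc, against 22.3% and 21.4% over all genes, with a median of 0.08. THOP1, thimet oligopeptidase, which cleaves neurotensin, was 1.87-fold higher (limma adjusted p = 5.63e-06), the insulin-degrading enzyme gene IDE 2.17-fold (adjusted p = 4.13e-07), DPP4 1.59-fold (adjusted p = 4.31e-05) and PREP by 0.48 ± 0.09 (adjusted p = 0.00123). ECE2 was 1.88-fold higher (adjusted p = 7.85e-06), but its difference was 0.01 without probe sets ending in _x_at, _s_at or _a_at (adjusted p = 0.983) and -0.05 with the median of its probe sets (adjusted p = 0.762). Neurolysin, NLN, which also cleaves neurotensin, read 7.96 in both lines and was not called (adjusted p = 0.973). ANPEP, aminopeptidase N, was at 5.29 ± 0.31 in PC-3/Mc, against 9.71 ± 0.18 in PC-3/S, 21.3-fold lower as read (adjusted p = 4.1e-10), a call lost on its other probe sets (adjusted p = 0.678). Only 2 of the 3 PC-3/Mc arrays read ANPEP above 5.18. ACE was called lower (-0.30 ± 0.10, adjusted p = 0.0298) with both means under the background reading. In counts of calls, quantile normalization and centring each gave 5 higher and 1 lower.

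G proteins and effectors downstream of these receptors gave 7 higher (25.0%), 8 lower (28.6%) and 13 uncalled of 28, near the 22.3% and 21.4% over all genes, with a median of -0.02. ARRB1, beta-arrestin 1, was 3.86-fold higher in PC-3/Mc (limma adjusted p = 9.76e-09), the protein kinase D gene PRKD1 at least 2.63-fold (adjusted p = 1.06e-08), the inositol trisphosphate receptor gene ITPR1 2.22-fold (adjusted p = 3.59e-07) and PRKCD 1.94-fold (adjusted p = 7.68e-06). Lower were the phospholipase C gene PLCB4, 2.73-fold (adjusted p = 1.57e-06), RGS2, a brake on Gq signalling, 2.53-fold (adjusted p = 8.6e-08), GNAZ 2.36-fold (adjusted p = 2.7e-06) and GNA14, at least 1.11-fold (adjusted p = 0.000322).

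Neuroendocrine prostate and small-cell markers gave 1 higher (5%) and 3 lower (15.0%) in PC-3/Mc of 20 measured, against 22.3% and 21.4% over all genes, with a median of 0.05. Quantile normalization gave 2 higher and 4 lower, and centring 3 higher and 3 lower. POU3F2, a neural transcription factor gene, was at least 1.25-fold higher (limma adjusted p = 5.33e-06). FOXA2 was at least 3.15-fold lower (adjusted p = 1.57e-09), ONECUT2 at least 2.49-fold (adjusted p = 7.8e-07) and ENO2, neuron-specific enolase, 1.45-fold (adjusted p = 0.00178). The FOXA2 call was lost without probe sets ending in _x_at, _s_at or _a_at (0.02, adjusted p = 0.912). Synaptophysin, SYP, read 4.82 in PC-3/Mc, against 4.95 in PC-3/S, under the background reading in both. Of the neuron markers 1 of 5 stood above that reading, NEFL, a neurofilament gene, at 12.17 in PC-3/Mc, against 11.06 in PC-3/S; the summed level of the 5 ran from 30.61 to 31.08 in PC-3/Mc, against 29.56 to 29.70 in PC-3/S, and the part of such cells in the GAL, NTS and UTS2B readings was not tested.

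**Figure D3:**
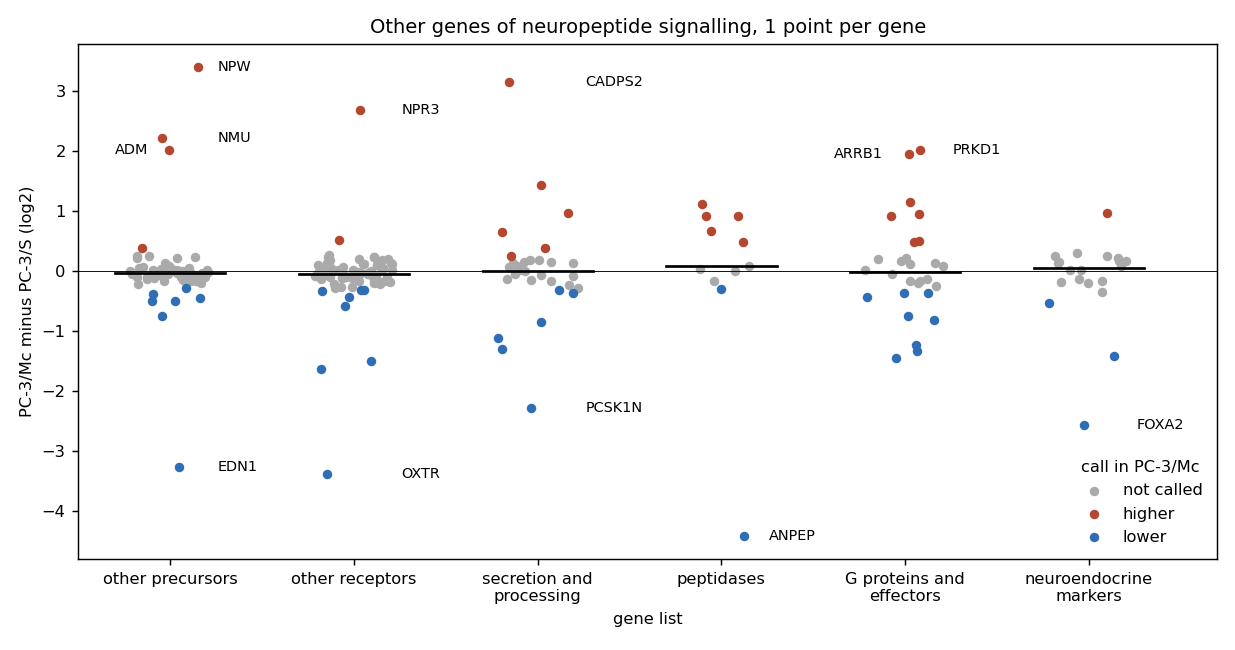
Difference between the lines (vertical axis, PC-3/Mc minus PC-3/S, in log2 units) of the measured genes of 6 lists (horizontal axis), 1 point per gene by its brightest probe set, coloured by limma call, with the list median as a black line. All 6 medians lie between -0.05 and 0.08, and most genes of the first 2 lists are grey, uncalled points near 0.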

How the data were processed

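The authors deposited a table of log2 expression values of 54675 probe sets on 6 arrays, with 0 other sample columns. Software, background correction and normalization: not given in the sources used here. Base 2 was inferred from the values (2.59 to 14.45, the highest a linear signal of 22358). If arrays were scaled to each other, a difference is relative to the array as a whole.

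The 62 control probe sets were left out. Of the rest, 41091 had 1 gene symbol in the platform annotation, 1801 several and 11721 none. The difference PC-3/Mc minus PC-3/S was fitted with limma 3.58.1 in R 4.3.3 (lmFit, eBayes, two-sided, no covariates) over all 54613 probe sets, with Benjamini-Hochberg adjustment and calls at an adjusted p under 0.05. In lists a gene stands by its brightest probe set (highest mean of all arrays); per list and direction, up to 4 called genes above the background reading were named, and others where counts were small or a role bore on the peptides, chosen after their values were seen. A fold against a line at or under 5.18 is a lower bound, with that line's arrays raised to 5.18. A mean no higher than the KLK3 readings need not be signal, so folds and differences that rest on one are as read. The genes and lists were chosen with earlier results of these data known. The number of arrays limits precision (median SE 0.098). The fit was run on simulated data with independent noise and far fewer changed probe sets than were called here. That run does not give the error rate of these calls. Arrays were not paired, because no label says that a replicate number marks a shared culture or day. Same-numbered arrays did not deviate together (r = -0.01, -0.21 and -0.31), a weak check with 3 arrays per line.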

Additional observations from a re-analysis of the deposited data

How the results depend on the processing

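Normalization, filters, the variance model, the choice of probe set and single arrays were varied. Over quantile normalization, centring and left-out arrays the difference ran from 5.71 to 5.79 for GAL, 4.61 to 4.85 for NTS, 5.76 to 5.95 for UTS2B, -0.47 to -0.40 for NTSR1 and -1.46 to -1.37 for SCG5. The median of its probe sets gave 3.10 for GAL, and the GALR1 difference of -0.06 turned to 0.03 without PC-3/Mc replicate 1. Taking background from olfactory receptor probe sets (5.12) gave bounds of 34.2-fold for GAL, 17.97-fold for NTS and 18.6-fold for UTS2B. Of the recomputed counts, 148 stayed within 1.5 times and 20 did not. All calls fell to 11485 probe sets without those ending in _x_at, _s_at or _a_at, where fewer were tested; that setting left 2 secretion genes lower and 0 peptidases lower. The median of a gene's probe sets also left 0 peptidases lower, and quantile normalization, centring, the replicate block and eBayes with trend and robust settings left 1. Receptors called higher numbered 7 with quantile normalization, 5 with centring and 1 without dim probe sets. Neuroendocrine markers called higher numbered 2, 3 and 2 in that order. Leaving out single arrays gave 1 to 2 peptidases lower (1 without PC-3/Mc replicate 2 or 3, or without replicate 2 of PC-3/S) and 1 to 2 neuroendocrine markers higher (2 without PC-3/Mc replicate 1, or without replicate 1 or 2 of PC-3/S). The causes were not tested. The replicate block gave 17443 called probe sets in place of 19582 and, apart from the peptidases called lower, changed no list count by over 1.5 times, and 0 of 3 PC-3/Mc arrays correlated best with the PC-3/S array of its own number.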
